A study of Rattus norvegicus with 3 samples.

Results

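The genes described here encode calcium-binding proteins of neurons, measured in motor cortex of rats whose brain blood supply was cut off and restored (cerebral ischemia and reperfusion) and that then received electroacupuncture. They were chosen by name, as the rows whose symbol was exactly Pvalb, Calb1, Calb2, Hpca, Hpcal1, Hpcal4, Vsnl1, Ncald, Ncs1 or Pcp4, which gave 10 of 30957 genes listed. All 3 animals were male Sprague-Dawley rats, numbered 12, 24-4 and 33, stimulated at the acupoint GB20 (Fengchi), with a time of 8 weeks whose starting point the labels do not give. They form 1 group with 1 library each, and rats without ischemia or without stimulation were not analysed here, so the data give each gene's level and its spread between treated animals, and no effect of either treatment.

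Calcium that enters a neuron is shaped by buffers, which soak it up, and read by sensors, which change shape and act on other proteins. Parvalbumin (Pvalb), calbindin (Calb1) and calretinin (Calb2) are EF-hand buffers used throughout cortical anatomy to tell classes of inhibitory interneurons apart, although calbindin is also made by upper-layer pyramidal cells. Hippocalcin (Hpca), hippocalcin-like proteins (Hpcal1 and Hpcal4), visinin-like protein (Vsnl1), neurocalcin delta (Ncald) and neuronal calcium sensor (Ncs1) form the neuronal calcium sensor family, small EF-hand proteins with a lipid tail that can move them to membranes when calcium rises, and several are strong in pyramidal cells. Pcp4 is a small protein that binds calmodulin through an IQ motif and speeds its exchange of calcium, and in cortex it marks deep-layer neurons.

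Values are in FPKM, a fragment count scaled by gene length in kilobases and by library size in units of 1000000 fragments. This scaling is meant to let levels be compared between genes. The gene lengths used are not given, so such comparisons rest on the authors' scaling and were not checked. Library depth, estimated from the steps between low values, was 13010000 to 17250000 fragments. The tissue carried markers of both neuron classes, with summed FPKM in rats 12, 24-4 and 33 of 1130.4, 1390.3 and 647 for 6 glutamatergic markers and of 327, 387 and 225 for 8 GABAergic ones, of which Npy was listed at 0. It also carried other cell types in unequal amounts. The 6 oligodendrocyte markers summed to 5323, 6965 and 12114, the 6 microglial markers to 110.4, 192 and 324, the 6 astrocyte markers to 545, 636 and 731, and the 7 choroid plexus markers to 3347, 130.0 and 13247. Rat 33 was thus lowest in the neuronal sums and highest in all of the others. Taken singly, the astrocyte markers were split, with 3 of the 6 highest in rat 33 and 3 in rat 24-4. In such bulk tissue, fewer cells of a type and less RNA per cell cannot be told apart.

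Pvalb was the main interneuron buffer transcript in each rat. Pvalb (ENSRNOG00000006471, chr7:119429019-119441487, minus strand, Rnor_6.0), the buffer of fast-spiking basket and chandelier cells, was at 158 FPKM in rat 12, 149 FPKM in rat 24-4 and 51.8 FPKM in rat 33. Rats 12 and 24-4 were close together and rat 33 stood below both, 3.04-fold under the highest. The mean was 119 ± 58.7 (SD, n = 3 rats, as for all means below), above 96.3% of the 13754 tested genes, those whose FPKM averaged 1 or more.

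Calb1 had a different pattern, with rat 12 alone at the top. Its FPKM (ENSRNOG00000007456, chr5:29538380-29562773, plus strand) was 57.1 in rat 12, 14.7 in rat 24-4 and 16.1 in rat 33, a mean of 29.3 ± 24.1. The highest rat was 3.88-fold above the lowest, the widest ratio of the 10 genes. The 4 upper-layer markers that were measured were also all highest in rat 12, against 23.8% of tested genes. So were 5 of 6 genes associated with parvalbumin cells, 4 of 6 glutamatergic, 4 of 6 pan-neuronal and 3 of 7 tested GABAergic markers. The summed FPKM of the upper-layer markers was 162, 83.8 and 34.8 in rats 12, 24-4 and 33. Lamp5, the highest of them, had 119, 66.6 and 17.4 in the same rats. The part of layer sampling in the Calb1 values was not tested.

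Calb2 was the lowest of the 10 genes and ran the other way. Its FPKM (ENSRNOG00000016977, chr19:41482728-41509658, plus strand) was 4.75 in rat 12, 7.29 in rat 24-4 and 9.56 in rat 33, a mean of 7.20 ± 2.41. For a gene of 1 kb the exact 95% Poisson interval would run between 3.72 and 5.97 in rat 12, between 6.07 and 8.68 in rat 24-4 and between 7.95 and 11.4 in rat 33, for counting error only, so that of rat 12 does not meet the other 2. Vip, a peptide made by many calretinin interneurons, had 21.6, 14.2 and 5.38 in the same rats, so the ratio of Calb2 to Vip was 0.219, 0.514 and 1.78. Among markers of dentate gyrus and thalamus, where calretinin also occurs in some neurons, 4 of 6 were tested and all 4 were highest in rat 33, against 42.0% of tested genes, but so were all tested oligodendrocyte, microglial and choroid plexus markers. C1ql2, the highest of them, had 0.859, 8.79 and 12.7. Whether tissue next to the motor cortex contributed to Calb2 was not tested.

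Taken as a class, the 3 buffers summed to 219 FPKM in rat 12, 171 FPKM in rat 24-4 and 77.4 FPKM in rat 33. Pvalb made up 71.8%, 87.1% and 66.9% of these sums. Calb1 gave 26.04%, 8.62% and 20.8%, and Calb2 gave 2.17%, 4.27% and 12.4%. The make-up of the class therefore varied between the rats along with its total.

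**Figure D1:**
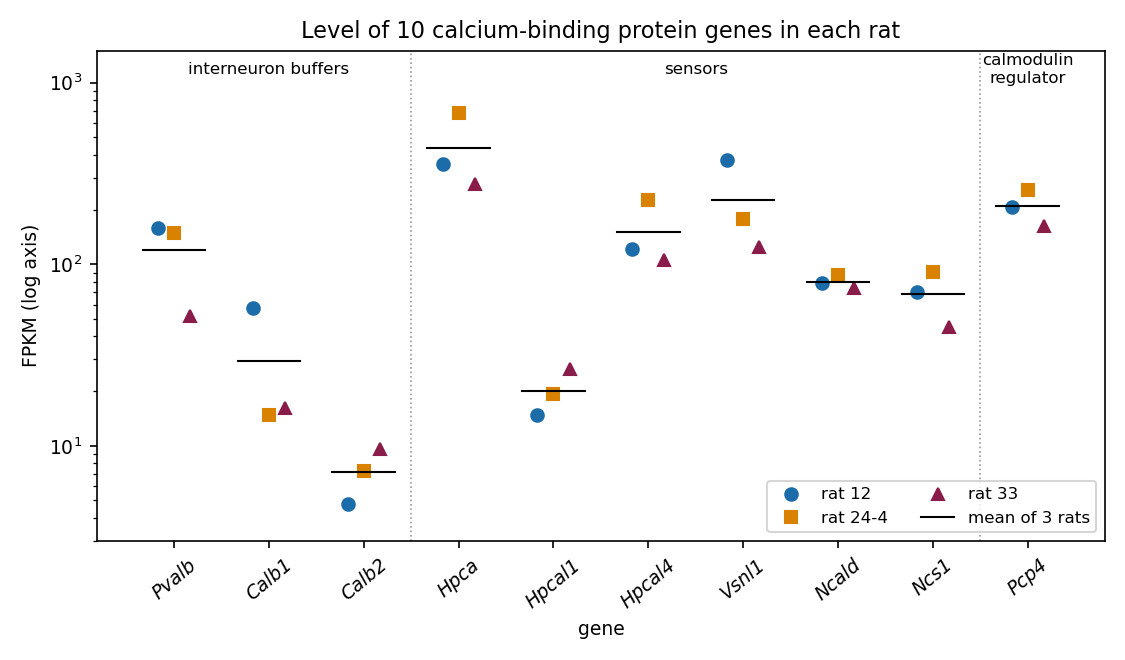
FPKM (log axis) of each gene in rat 12 (circles), rat 24-4 (squares) and rat 33 (triangles), with the mean of the 3 rats as a bar, for interneuron buffers, sensors and the calmodulin regulator. Hpca has the highest mean (439) and Calb2 the lowest (7.20), and the 3 Ncald points lie closest together.

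Hpca was the most abundant sensor on average. Hippocalcin is best known from hippocampal pyramidal cells, where it takes part in the slow afterhyperpolarisation that follows bursts of spikes. Hpca (ENSRNOG00000006979, chr5:147294820-147303346, minus strand) was at 358 FPKM in rat 12, 679 FPKM in rat 24-4 and 278 FPKM in rat 33, a mean of 439 ± 212 that exceeded 99.4% of tested genes. Rat 24-4 was 2.44-fold above rat 33. Tmem54, on the opposite strand, overlaps 1883 bp of the Hpca locus, but its own FPKM was 0.0771, 0.137 and 0.273.

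Hpcal4 followed Hpca at about the same ratio in each rat. Its FPKM (ENSRNOG00000050983, chr5:140870140-140882244, plus strand) was 122 in rat 12, 227 in rat 24-4 and 105 in rat 33, a mean of 151 ± 66.1. The ratio of Hpcal4 to Hpca was 0.340, 0.335 and 0.379, with a mean of 0.351 ± 0.0242. The highest and lowest rats of Hpcal4 itself differed by 2.15-fold.

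Vsnl1 departed from this pattern. Visinin-like protein is abundant in cortical neurons and appears in cerebrospinal fluid when neurons are damaged. Vsnl1 (ENSRNOG00000005345, chr6:37001356-37122023, minus strand) reached 375 FPKM in rat 12, 178 FPKM in rat 24-4 and 125 FPKM in rat 33, a mean of 226 ± 132. Rat 12 was 3.01-fold above rat 33, and the ratio of Vsnl1 to Hpca was 1.05, 0.263 and 0.448. In rat 12 these 2 genes had nearly equal levels, with 36.8% of the summed sensor FPKM for Vsnl1 and 35.2% for Hpca, while in rat 24-4 the shares were 13.9% and 53.0%, and in rat 33 they were 19.0% and 42.6%.

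Ncald and Ncs1 lay lower and closer to each other. Ncald (ENSRNOG00000042978, chr7:76199306-76488216, minus strand), which encodes a sensor linked to clathrin-coated vesicles and endocytosis, was at 79.2 FPKM in rat 12, 87.2 FPKM in rat 24-4 and 73.9 FPKM in rat 33. With a mean of 80.1 ± 6.71 and a ratio of 1.18 between the highest and lowest rat, it was the steadiest of the 10 genes, and 8.20% of tested genes had a smaller ratio. Ncs1 (ENSRNOG00000008761, chr3:10553596-10602644, minus strand), the homolog of fly frequenin, which affects transmitter release, was at 70.0 in rat 12, 90.4 in rat 24-4 and 45.3 in rat 33, a mean of 68.6 ± 22.6. Its share of the summed sensor FPKM was 6.87%, 7.06% and 6.93%, so Ncs1 varied between rats in proportion to the class as a whole.

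Hpcal1 was the lowest sensor and the only one of the 6 that was highest in rat 33. It is best known from cerebellar Purkinje cells. Its FPKM (ENSRNOG00000005492, chr6:43001948-43109071, plus strand) was 14.8 in rat 12, 19.3 in rat 24-4 and 26.4 in rat 33, a mean of 20.1 ± 5.86. The ratio of Hpcal1 to Hpca was 0.0413, 0.0284 and 0.0948, and its share of the summed sensor FPKM was 1.45%, 1.503% and 4.04%. Gfap, the intermediate filament of astrocytes and a gene of reactive astrocytes, had 271, 937 and 1585 in the same rats. All 4 measured reactive astrocyte genes were lowest in rat 12 and highest in rat 33, against 21.3% of tested genes. The same was so for all 6 microglial markers, and all 6 oligodendrocyte markers were highest in rat 33. Of the 6 general astrocyte markers, 3 were highest in rat 33 and 3 in rat 24-4. The part of these cell types in the Hpcal1 values was not tested. Hpca, Hpcal1 and Ncald are close relatives in sequence, and how the authors' counting divided fragments between them was not tested.

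Pcp4 was steady compared with most of the other genes chosen here. It (ENSRNOG00000001628, chr11:36851038-36912229, plus strand) was at 206 FPKM in rat 12, 255.9 FPKM in rat 24-4 and 163 FPKM in rat 33, a mean of 208 ± 46.6 and a ratio of 1.57 between the highest and lowest rat. Of tested genes, 45.1% had a smaller ratio, so its spread was ordinary beside all genes. Pcp4 is also strong in striatum, and the ratio of Pcp4 to the striatal gene Ppp1r1b was 2.53, 2.73 and 2.62. The part of deep-layer cortex and of striatum in the Pcp4 level was not tested.

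The upstream sequences of 4 sensors are shown because these genes belong to 1 family and yet took 3 different orders of rats. Hpca and Hpcal4 were highest in rat 24-4, Vsnl1 in rat 12 and Hpcal1 in rat 33. Each is the 250 bases before the annotated gene start, 5′ to 3′ on the gene's strand, from RefSeq on assembly GRCr8, which differs from the build of the expression files. Capitals mark the GC box GGGCGG or its reverse complement CCGCCC, a motif bound by Sp transcription factors.
Hpca (chr5:146748359-146748608, minus strand): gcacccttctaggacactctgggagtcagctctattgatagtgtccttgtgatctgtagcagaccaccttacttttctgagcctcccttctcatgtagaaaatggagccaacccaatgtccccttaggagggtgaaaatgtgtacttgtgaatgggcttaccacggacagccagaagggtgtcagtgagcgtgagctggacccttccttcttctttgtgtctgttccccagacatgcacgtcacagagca
Hpcal4 (chr5:140739658-140739907, plus strand): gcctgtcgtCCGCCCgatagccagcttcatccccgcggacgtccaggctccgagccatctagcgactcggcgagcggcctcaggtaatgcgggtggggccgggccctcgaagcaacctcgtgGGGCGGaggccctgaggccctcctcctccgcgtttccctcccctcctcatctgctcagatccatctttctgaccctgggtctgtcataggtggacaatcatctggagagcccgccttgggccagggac
Vsnl1 (chr6:39878557-39878806, minus strand): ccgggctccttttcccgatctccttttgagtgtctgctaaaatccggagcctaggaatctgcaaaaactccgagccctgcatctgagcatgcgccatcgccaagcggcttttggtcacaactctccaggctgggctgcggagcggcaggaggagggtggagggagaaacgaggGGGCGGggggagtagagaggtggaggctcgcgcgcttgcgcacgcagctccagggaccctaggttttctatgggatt
Hpcal1 (chr6:46206644-46206893, plus strand): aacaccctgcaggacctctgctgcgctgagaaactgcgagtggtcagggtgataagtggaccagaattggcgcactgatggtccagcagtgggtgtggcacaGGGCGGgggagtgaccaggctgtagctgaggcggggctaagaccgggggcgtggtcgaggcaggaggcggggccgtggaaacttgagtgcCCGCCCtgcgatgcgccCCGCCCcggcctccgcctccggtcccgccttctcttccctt

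Hpca and Hpcal4, whose levels kept nearly the same ratio across rats, differed in these letters. The Hpca sequence held 3 CpG dinucleotides and no GC box, with a GC content of 50.8%. Hpcal4 held 19 CpG dinucleotides and 2 GC boxes at a GC content of 66.4%, Vsnl1 held 16 and 1 at 60.8%, and Hpcal1 held 18 and 3 at 67.2%. Among 33469 RefSeq upstream sequences of this length the median was 5 CpG dinucleotides and a GC content of 51.2%, and 30.5% held a GC box. Of the 10 genes, 7 had an entry, and in none of these was the TATA box TATAAA present on either strand, a motif held by 12.9% of all sequences. A match, or its absence, describes only the letters of this window.

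**Figure D2:**
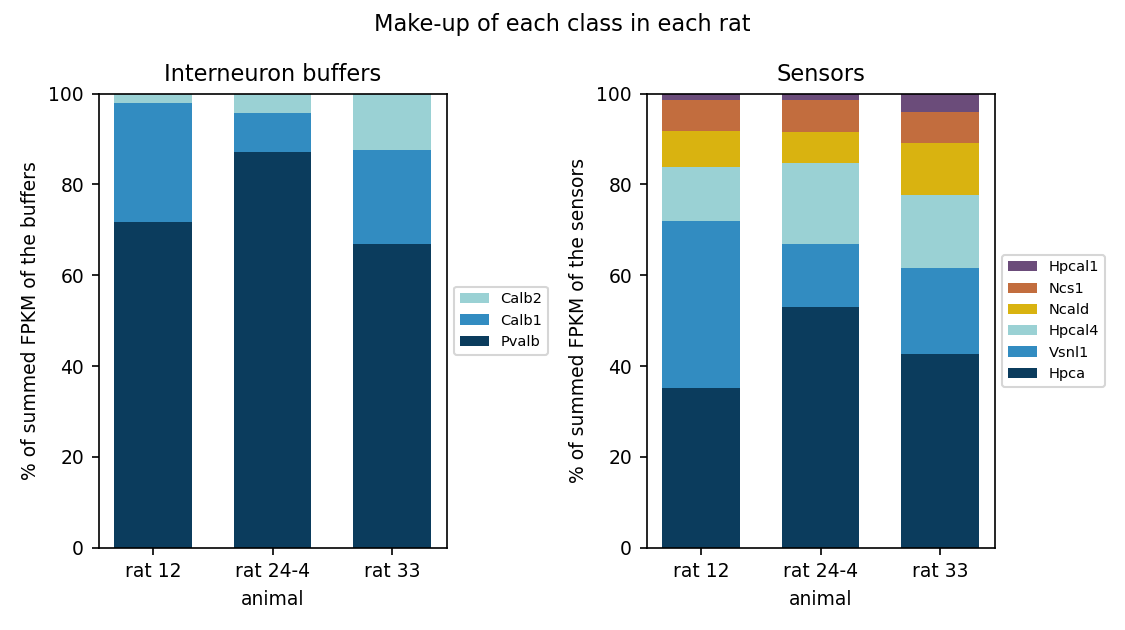
Share (%) of each gene in the summed FPKM of its class in each rat, for the 3 interneuron buffers (left) and the 6 sensors (right). Pvalb takes most of the buffer bar in every rat, while Vsnl1 and Hpca have nearly equal shares of the sensor bar in rat 12 and unequal shares in the other rats.

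Ordered by mean level on the log2(FPKM + 1) scale, the genes ran Hpca (8.67), Pcp4 (7.68), Vsnl1 (7.67), Hpcal4 (7.17), Pvalb (6.75), Ncald (6.34), Ncs1 (6.07), Calb1 (4.64), Hpcal1 (4.37) and Calb2 (2.99). By mean FPKM itself Vsnl1 came before Pcp4. Only 3 of the 9 neighbouring pairs differed beyond their spread, taken as the same sign in all 3 rats and a mean difference larger than its SD. Hpca exceeded Pcp4 by 0.99 ± 0.36, Ncs1 exceeded Calb1 by 1.42 ± 1.13 and Hpcal1 exceeded Calb2 by 1.37 ± 0.08. The other 6 neighbouring pairs changed sign between rats, for example Pcp4 minus Vsnl1 with -0.86, 0.52 and 0.38 in rats 12, 24-4 and 33. Without rat 12, 6 of the 9 pairs met the criterion, which then asked agreement of fewer rats. Calb2 and Hpcal1 kept their distance in every rat, with Calb2 minus Hpcal1 at -1.46, -1.29 and -1.38.

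Interneuron buffers lay below the sensors as a class, but Pvalb did not lie below all of them. The median of the 3 buffers minus the median of the 6 sensors was -0.77 in rat 12, -3.03 in rat 24-4 and -2.39 in rat 33 on the log2 scale, a mean of -2.06 ± 1.16. By summed FPKM, the buffers reached 21.5%, 13.3% and 11.8% of the sensors in the same rats. Rat 12 was closest to balance by both measures, and the buffer median was Calb1 in each rat. With Calb1 left out the mean difference was -1.83, without rat 24-4 it was -1.58, and without rat 12 it was -2.71.

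Taken pair by pair, 13 of the 18 pairs of a buffer and a sensor had the buffer lower in all 3 rats and 2 had it higher in all 3. Calb2 was below all 6 sensors in every rat, with mean differences from -5.68 against Hpca to -1.37 against Hpcal1. Calb1 was below 5 of the 6, and against Hpcal1 it was above in rat 12 (1.88) and below in rats 24-4 (-0.37) and 33 (-0.68). Pvalb was below Hpca by a mean difference of -1.92 ± 0.65 and below Vsnl1 by -0.92 ± 0.57. It was above Hpcal1 by 2.39 ± 1.27 and above Ncs1 by 0.69 ± 0.49. Against Hpcal4 and Ncald its sign differed between rats, with 0.37, -0.61 and -1.01 for Pvalb minus Hpcal4 and 0.98, 0.76 and -0.50 for Pvalb minus Ncald. For the 15 pairs with a shared sign the exact two-sided sign-flip test gave p = 0.25, the smallest value that 3 rats allow, so no pair could pass 0.05.

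**Figure D3:**
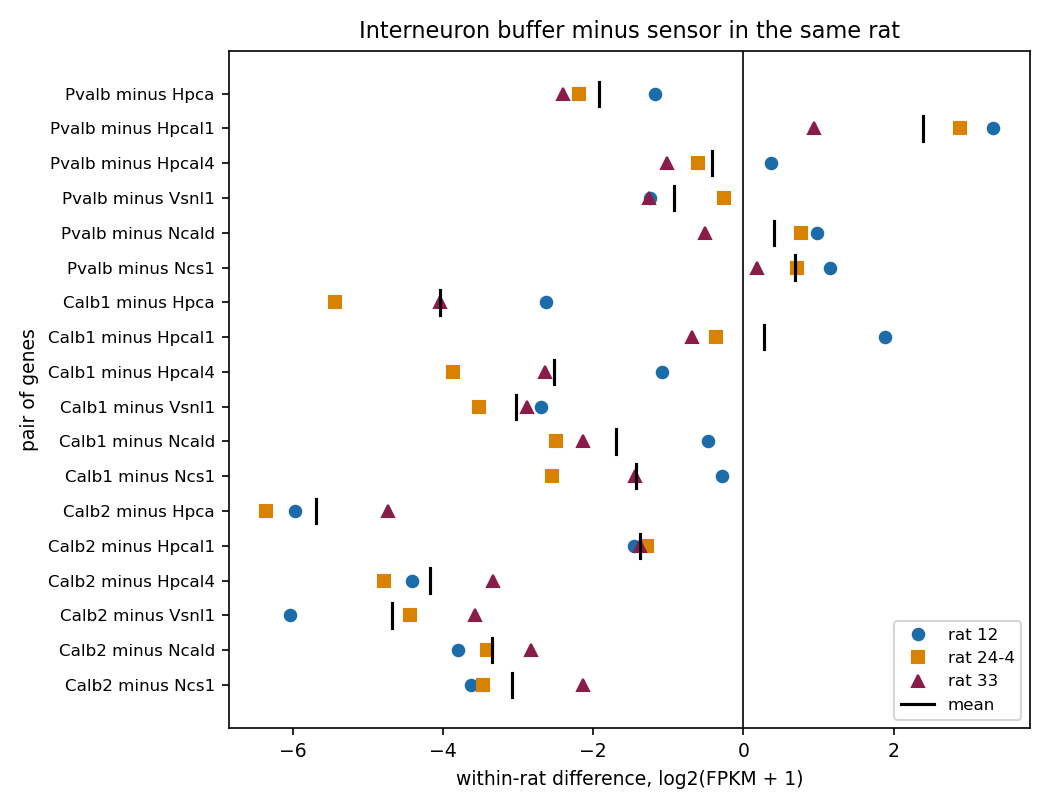
Within-rat difference on the log2(FPKM + 1) scale for each of the 18 pairs, interneuron buffer minus sensor, in rat 12 (circles), rat 24-4 (squares) and rat 33 (triangles), with the mean as a bar. Every Calb2 point lies left of 0, while the Pvalb pairs lie on both sides.

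Pvalb also changed its place among interneuron genes from rat to rat. The ratio of Pvalb to Gad1, which makes GABA, was 2.46 in rat 12, 3.15 in rat 24-4 and 1.61 in rat 33. Its ratio to Sst, the peptide of another interneuron class, was 1.17, 0.631 and 0.414. Gad1 itself had an FPKM of 64.1, 47.3 and 32.1, and Sst had 135, 236 and 125. Of 6 genes associated with parvalbumin cells, 5 were lowest in rat 33, against 28.9% of tested genes, but so were 5 of 6 glutamatergic, 5 of 6 pan-neuronal and 6 of 7 tested GABAergic markers. The summed FPKM of the 6 genes was 139, 93.4 and 48.7 in rats 12, 24-4 and 33. Acan, a component of the nets around these cells and the lowest of that list, had 1.78, 1.33 and 0.878. By its ratios, Pvalb was lowest in rat 33 also relative to Gad1 and Sst. That did not hold for every interneuron gene. From rat 12 to rat 33, Pvalb fell 3.04-fold, but Vip fell 4.02-fold and Syt2, of the parvalbumin-cell list, 11.1-fold.

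The spread between rats was compared with that of genes of the same level, by the residual variance of each gene over a prior fitted with limma across all 13754 tested genes. None of the 10 genes passed an adjusted p of 0.05, a call made for 14 genes in all or 0.102%. At an unadjusted limma p under 0.05, which 5.96% of tested genes reached, there were 2 of the 10. They were Calb1 (SD 1.06 on the log2 scale, limma adjusted p = 0.543) and Pvalb (SD 0.89, limma adjusted p = 0.797). Vsnl1 came next (SD 0.81, limma adjusted p = 0.901), and Ncald had the smallest SD of the 10, at 0.12 (limma adjusted p = 0.998). On simulated data the test recovered 2% of genes in which 1 rat differed 4-fold and 86% at 16-fold, so ratios of the size seen here were mostly outside what it could call. The simulated data gave 146 calls, against 14 here, which eases the adjusted threshold, so these shares may be too high for the real data. There, the choroid plexus marker Folr1 differed 28.2-fold between its highest and lowest rat and was not called (limma adjusted p = 0.0638).

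**Figure D4:**
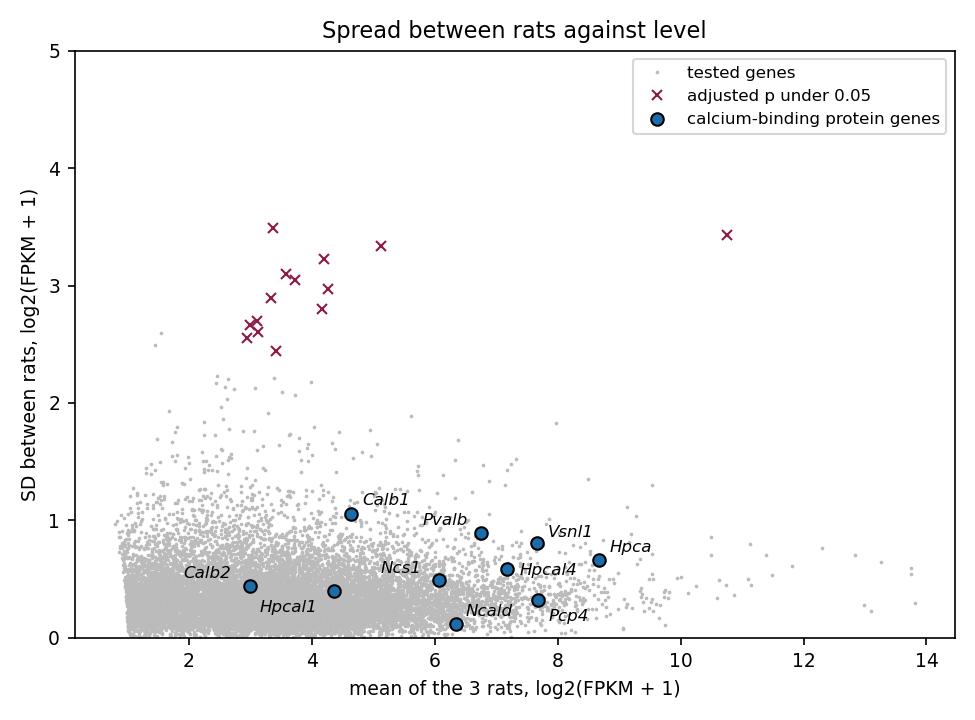
SD between the 3 rats against mean level, both on the log2(FPKM + 1) scale, for all tested genes (grey points), the 14 genes with an adjusted p under 0.05 (crosses) and the 10 calcium-binding protein genes (circles). Calb1 (1.06), Pvalb (0.89) and Vsnl1 (0.81) lie highest of the 10 and Ncald (0.12) lowest, all below the crosses.

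In raw ratios, 6 of the 10 genes differed at least 2-fold between their highest and lowest rat, against 30.0% of tested genes. At least 3-fold differences were found for Calb1, Pvalb and Vsnl1, against 10.4% of tested genes. Of the 10 genes, 3 were highest in rat 12, 5 in rat 24-4 and 2 in rat 33, against 23.8%, 34.2% and 42.0% of tested genes. The lowest value was in rat 12 for 2 genes and in rat 24-4 for 1, against 37.9% and 33.3% of tested genes. The genes fell into a few orders of rats. Hpca, Hpcal4, Ncald, Ncs1 and Pcp4 ran rat 24-4, rat 12, rat 33 from high to low, an order shown by 17.7% of tested genes. Pvalb and Vsnl1 ran rat 12, rat 24-4, rat 33, against 11.2%, and Calb2 and Hpcal1 ran rat 33, rat 24-4, rat 12, against 21.3%. With mitochondrial genes removed before rescaling, Ncald became highest in rat 12 (108, 105 and 90.9 in rats 12, 24-4 and 33), while the highest and lowest rats of the other 9 genes stayed as they were. That rescaling raised the median of all tested genes by 0.41, 0.24 and 0.28 on the log2 scale in rats 12, 24-4 and 33.

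Rat 33 had the lowest value for 7 of the 10 genes, against 28.9% of tested genes, and for 5 of the 6 sensors. The same was so for 5 of 6 glutamatergic, 6 of 7 tested GABAergic and 5 of 6 pan-neuronal markers, so the share among the calcium-binding protein genes was no higher than among general neuronal markers. The median deviation of the 10 genes from the mean of the rats was -0.48 in rat 33, against 0.07 over all tested genes. In that rat it was -0.94 for glutamatergic, -0.38 for GABAergic and -0.46 for pan-neuronal markers, so the 10 genes lay within the range of these lists.

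Taking each gene relative to the median of neuronal markers in the same rat narrowed the spread of 7 genes and widened it for Calb2, Hpcal1 and Ncald. The direction was the same with glutamatergic, GABAergic and pan-neuronal markers, but the size was not. The GABAergic median includes Npy, listed at 0. How many of all tested genes narrow in this way was not counted. Ncs1 minus the glutamatergic median was 0.83, 1.10 and 0.96 in rats 12, 24-4 and 33, with an SD of 0.13 against 0.50 for Ncs1 alone, and the SD was 0.29 with GABAergic and 0.13 with pan-neuronal markers. For Pcp4 the SD was 0.20 with glutamatergic, 0.30 with GABAergic and 0.14 with pan-neuronal markers, against 0.32 alone. For Pvalb minus the glutamatergic median the SD was 0.44, against 0.89 alone, and rat 33 still had the lowest difference (1.99, 1.81 and 1.15). Hpcal1 minus the glutamatergic median was -1.33, -1.07 and 0.21, with an SD of 0.83 against 0.40 alone, and Calb2 gave 0.84 against 0.44. Calb1 changed little, with 0.99 against 1.06.

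**Figure D5:**
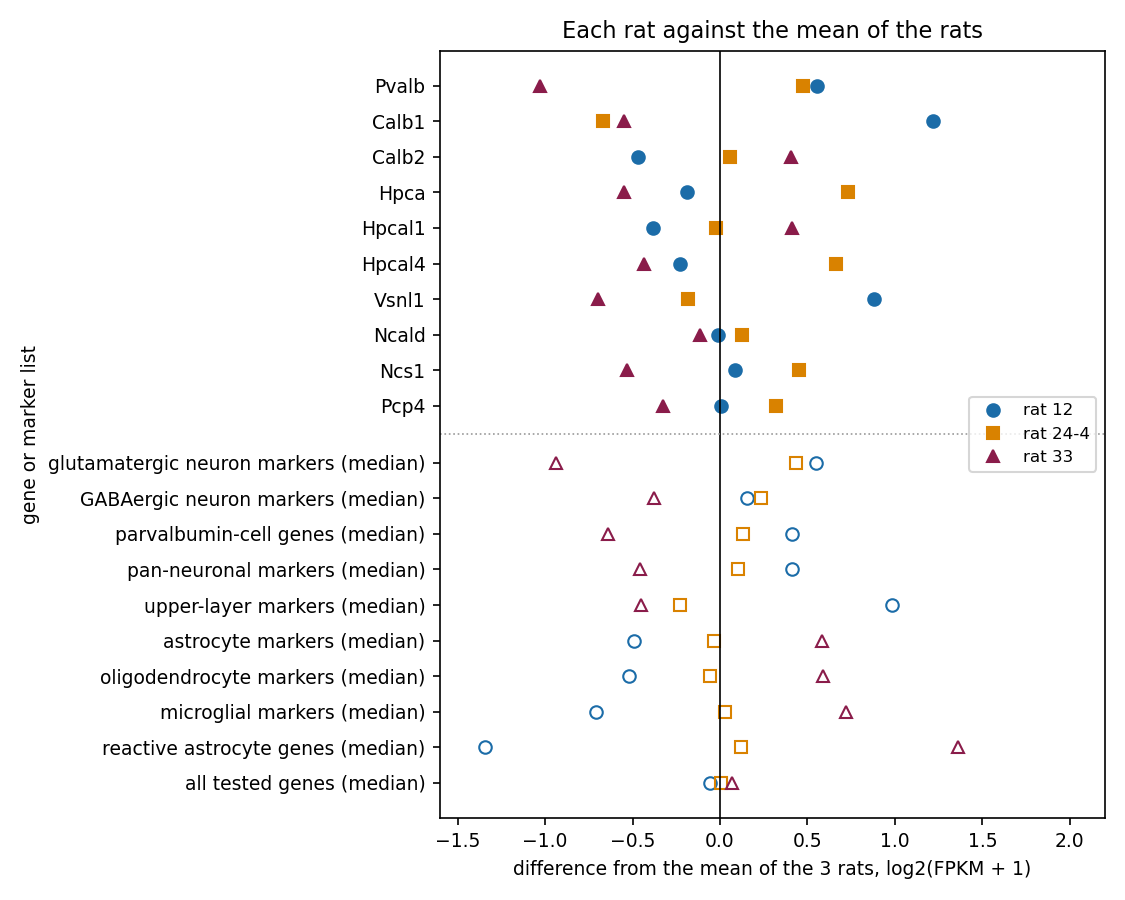
Difference of each rat from the mean of the 3 rats on the log2(FPKM + 1) scale, for each gene (filled) and as the median over marker lists and over all tested genes (open), with rat 12 as circles, rat 24-4 as squares and rat 33 as triangles. Rat 33 lies left of 0 for 8 of the 10 genes and for the neuronal lists, and right of 0 for Calb2, Hpcal1 and the glial lists.

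Relatives of these genes outside the 10 gave 0 calls at a limma adjusted p of 0.05. In the calcium sensor family, 4 of 7 further genes were tested, the potassium channel partners Kcnip1 to Kcnip4, with none at an unadjusted limma p under 0.05. All 4 were lowest in rat 33, against 28.9% of tested genes, but so were 5 of 6 glutamatergic, 5 of 6 pan-neuronal and 6 of 7 tested GABAergic markers. Kcnip3, the highest, had an FPKM of 51.8, 61.0 and 29.5 in rats 12, 24-4 and 33, while Guca1a, a photoreceptor sensor and the lowest, was listed at 0, 0.0438 and 0. Among other EF-hand proteins 7 of 10 were tested. Efhd2, the highest, had 111, 233 and 83.1, the same order as Hpca, and S100g was listed at 0 in all rats. The 2 of these 7 at an unadjusted limma p under 0.05, against 5.96% of tested genes, are named for that value. Cabp1 was highest and Cabp7 lowest in rat 12. Cabp1, a neuronal calmodulin relative, had 92.1, 45.9 and 20.2 (limma adjusted p = 0.561), and Cabp7 had 12.8, 61.7 and 49.2 (limma adjusted p = 0.467).

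Pcp4l1, the relative of Pcp4, lay well below it, at 22.8 FPKM in rat 12, 20.2 FPKM in rat 24-4 and 17.9 FPKM in rat 33. Like Pcp4 it was lowest in rat 33.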

How the data were processed

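RNA sequencing of motor cortex from 3 treated rats was used, 1 library each. The deposited values are FPKM: the authors made them from normalized fragment counts of each gene by a Perl script, per the series' design text. The submitters' processing notes name HISAT2 2.0.4, StringTie 1.3.0 and the build Rnor_6.0. How counts were normalized, the gene lengths and any use of strand are not given here by any source.

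Loci no longer than 400 bp gave the depth, since small values there step by single fragments. Within a tolerance of 0.02, 91.3%, 91.5% and 92.2% of values were whole in rats 12, 24-4 and 33. At 1 FPKM, 1 kb of gene then carried 15.3, 17.3 and 13.0 fragments. Of the genes listed, 11974 were at 0 in all rats.

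The scale was log2(FPKM + 1), on which differences of low genes are understated. Spread between rats was tested with limma (version 3.58.1, R 4.3.3) on the 13754 genes whose FPKM averaged 1 or more. An intercept was fitted per gene with a trended and robust prior, each residual variance was compared with its prior variance by the F distribution, one-sided, and Benjamini-Hochberg adjustment ran across all tested genes (threshold 0.05). The test was tested on simulated data. Pair differences used the exact two-sided sign-flip test. Python 3.11.15 with scipy 1.17.1, pandas 2.3.3 and numpy 2.4.6 served for the rest.

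The members and lists were chosen with earlier results of these data known. The text names the 10 genes and, from lists set beside them, the highest and lowest gene, called genes, and markers compared with a member; other lists are given by their sums and counts. Some list genes are not reported here. Of 104 list genes, 99 were matched. Protein sequences were not used here. Alternatives covered the pseudocount, scaling, filter, prior, list membership and leaving out each rat.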

Additional observations from a re-analysis of the deposited data

How the results depend on the processing

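None of the 10 genes passed an adjusted limma p of 0.05 under any of the 9 alternatives, while 1 to 3 of them had an unadjusted p under 0.05. The count over all genes, 14, was 23 with a pseudocount of 0.1 and 0 with the mitochondrial genome left out, with the FPKM minimum lowered to 0.1, without a filter on low values (genes at 0 in every rat aside) and with a prior that is not robust, and it ran from 0 to 101 with 1 rat left out; the cause was not tested. The median of the buffers minus that of the sensors stayed below 0 under all 9 alternatives, from -2.77 with Hpcal1 and Ncs1 left out to -1.58 without rat 24-4. The count of pairs with the buffer lower in all rats, 13, ran from 13 to 15 with 1 rat left out. Leaving out a rat can only keep or raise that count, so this range is no check of it. The count of neighbouring pairs beyond their spread, 3, ran from 3 to 6, where agreement of fewer rats was asked. With the mitochondrial genome left out, the mean FPKM of Ncald was 101 and that of Pcp4 263, each more than 1 SD above its value, since that rescaling raises all genes. No paired comparison of treatments was possible because there is 1 group, while pairs of genes were compared within each rat. With 3 rats, no pair of genes could reach a p under 0.25, and depth, at 13.0 to 17.3 fragments per kb for an FPKM of 1, limits Calb2, the lowest gene, more than the others.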
